A study of Homo sapiens with 12 samples.

Results

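The comparison described here set HEK293T cells that received dCas9-VP160 together with 6 guide RNAs for the CD34 promoter against HEK293T cells that received dCas9-VP160 without them. It takes up 8 of the 12 libraries of the series, chosen by their labels: 4 with guides and 4 without. HEK293T is a human embryonic kidney line that expresses the large T antigen of a simian virus. Both groups were transfected with lipofectamine and 5.4 pmol of plasmid in all, and RNA was taken at 48 h. The labels name the shared vector sgRNA-dCas9-VP160-P2A-EGF, and the guides are an addition to it. Each group was assayed in 2 experiments, each on its own batch of cells, with 2 technical replicates per experiment. The other 4 libraries, from cells labelled as without any vector, are called no plasmid below; the labels describe them both as not transfected and as treated with reagents alone. Their levels are given for orientation only. No group received guides without dCas9-VP160 or guides for another gene. Sources of any difference therefore cannot be told apart, the guides as RNA and the raised CD34 among them. How much of each plasmid was used, and the share of cells transfected, is not given in the sources used. In bulk RNA, more cells with a transcript and more of it per cell cannot be told apart either.

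In this form of gene activation, a Cas9 protein that cannot cut DNA is brought to a promoter by guide RNAs and carries repeats of the VP16 activation domain of herpes simplex virus. CD34 is a heavily glycosylated transmembrane sialomucin, best known as a marker of blood stem and progenitor cells and of vascular endothelium. Such proteins are made on the endoplasmic reticulum (ER), where the unfolded protein response adjusts chaperones and export machinery to the load of client proteins. NF-kB is a family of transcription factors held in check by inhibitors that are themselves among its targets.

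Gene counts per library ran from 6750035 to 11932244 over the 8 libraries, with 26115 to 28418 genes detected. Levels below are CPM, each library's counts brought to the same total after TMM scaling in edgeR. Values per library are listed in the order experiment 1 replicates 1 and 2, then experiment 2 replicates 1 and 2. Fold changes, approximate standard errors (SE) and p-values come from edgeR's quasi-likelihood test on libraries summed over technical replicates, with the experiment as a block. A gene is called higher or lower at a Benjamini-Hochberg adjusted p under 0.05. The spread is that of 2 batches of 1 cell line, and the estimate for each gene is mostly borrowed from other genes. The technical replicates of every group differed from each other by more than counting error. With guides the chi-square per degree of freedom over genes was 4.37 and 3.07 in the 2 experiments, against 2.03 and 1.84 without guides. With no plasmid it was 1.95 and 2.93, so that of experiment 2 was close to the value with guides. In the replicate 2 libraries with guides mitochondrially encoded genes took 7.49% and 7.44% of the counts. The replicate 1 libraries with guides had 5.57% and 5.59%, and the 4 libraries without guides had 5.14% to 5.63%.

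CD34 was almost silent without guides and readily measured with them. The gene (ENSG00000174059) lies on the minus strand of chromosome 1, from 207880972 to 207911402 in GRCh38. With guides its level was 107, 97.5, 97.9 and 94.5 CPM. Without guides it was 0.774, 1.02, 0.983 and 0.832 CPM, against 1.52, 2.47, 1.61 and 2.42 CPM with no plasmid. The 4 libraries with guides lay close together and far above every other library, and the lowest 4 were those with dCas9-VP160 alone. The rise was 6.79 on the log2 scale (SE 0.12, adjusted p = 8.68e-25), and it was 6.85 from the replicate 1 and 6.71 from the replicate 2 libraries. The rise did not differ detectably between experiments (difference of log2 fold changes -0.13, adjusted p = 0.999, edgeR interaction term, judged against the spread of technical replicates).

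The guides are described as directed at the CD34 promoter, and the sources used here do not give their sequences. Shown are the 250 bases before the gene's start in RefSeq (GRCh38.p14, chr1:207911126-207911375, minus strand), taken as its promoter by that annotation. The start in GENCODE, used for the coordinates above and the distances below, is at 207911402. The stretch therefore lies within the gene as given there, and where the guides bind is not known. Runs of GG are in capitals, since the Cas9 of Streptococcus pyogenes needs the motif NGG beside its target.

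CD34, 250 bases before the start: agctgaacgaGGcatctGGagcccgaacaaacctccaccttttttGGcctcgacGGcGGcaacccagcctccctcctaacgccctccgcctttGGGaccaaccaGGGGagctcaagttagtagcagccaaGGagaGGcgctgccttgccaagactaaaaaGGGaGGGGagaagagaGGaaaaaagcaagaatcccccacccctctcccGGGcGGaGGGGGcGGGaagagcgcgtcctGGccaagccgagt

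This stretch held 28 NGG motifs on the strand shown and 33 on the other, overlapping ones included. Its total of 61 compares with a median of 48 (quartiles 31 and 63) over the same stretch of 35116 RefSeq promoters, of which 100.0% held at least 1. Its GC content was 61.6%, and the median was 58.0%. The match of letters says nothing about which sites the guides used.

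**Figure D1:**
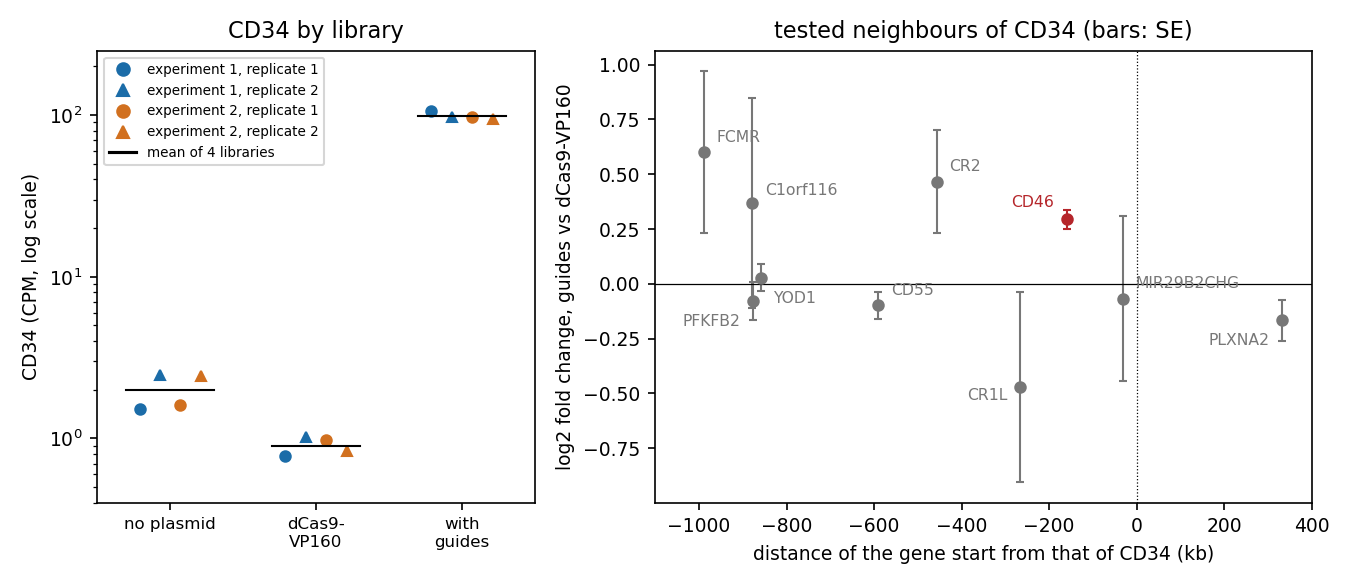
Left, CD34 level in each of the 12 libraries (CPM, log scale) by group, with colour for the experiment, shape for the technical replicate and a line for the mean; the 4 libraries with guides sit between 94.5 and 107 CPM, all others at or below 2.47. Right, log2 fold change with guides against dCas9-VP160 (points, bars 1 SE) of the 10 tested genes whose start lies within 1 Mb of that of CD34, by distance in kb (negative towards lower coordinates); CD46, in red, was called.

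The neighbours of CD34 were examined for a change around the targeted site. Over all 19662 genes tested, 817 were higher with guides (4.16%) and 670 were lower (3.41%), 7.56% together. Of 32 annotated genes that start within 1 Mb of the CD34 start, 11 were expressed highly enough to test. CD34 itself and CD46 were called higher, and none was called lower. The edgeR test gave no other neighbour an unadjusted p under 0.05. CD46 encodes membrane cofactor protein, which protects cells from complement, and starts 159.3 kb from CD34 (chromosome 1, 207752057 to 207795513, plus strand). Its level was 138, 138, 146 and 149.7 CPM with guides and 108, 113, 122 and 123 CPM without, so the groups did not overlap. It rose by 0.29 (SE 0.05, adjusted p = 1.21e-04), by 0.30 from the replicate 1 and by 0.29 from the replicate 2 libraries. With no plasmid CD46 was at 140.5, 141, 164 and 161 CPM, which overlaps the level with guides.

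Other complement genes of this stretch were not called. CD55, decay-accelerating factor, was at 44.95, 51.7, 54.6 and 53.4 CPM with guides and 50.01, 48.5, 61.7 and 59.2 without (log2 fold change -0.10, SE 0.06, adjusted p = 0.387). CR2, the complement receptor of B cells, was at 3.36 CPM with guides and 2.44 without (0.47, SE 0.23, adjusted p = 0.258). The host gene of the miR-29b-2 microRNA, MIR29B2CHG, starts nearest to CD34 at 32.3 kb and lay near 1 CPM in both groups (-0.07, SE 0.38, adjusted p = 0.948). PLXNA2, a semaphorin receptor and the tested gene on the other side, was at 17.4 and 19.5 CPM (-0.17, SE 0.09, adjusted p = 0.326). With levels this low the wide errors of CR2, FCMR, CR1L, C1orf116 and MIR29B2CHG leave changes of the size seen for CD46 undetectable.

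Most other differences were small. The median log2 fold change was 0.22 among the 817 higher genes and -0.31 among the 670 lower ones, against -0.0040 over all genes tested. Of these, 66 higher and 183 lower genes changed by 0.5 or more on the log2 scale, and 539 higher and 246 lower genes changed by under 20%. Higher genes were the more abundant: the median of their mean level was 100.9 CPM, against 31.8 CPM for lower genes and 15.2 CPM for all tested. Protein-coding genes were 94.5% of the higher, 86.7% of the lower and 73.2% of the tested genes. Fitted with edgeR to the 8 libraries, an interaction term called 0 genes as responding differently between experiments. At an unadjusted p under 0.05 it gave 814 of all genes and 49 of the 1487.

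**Figure D2:**
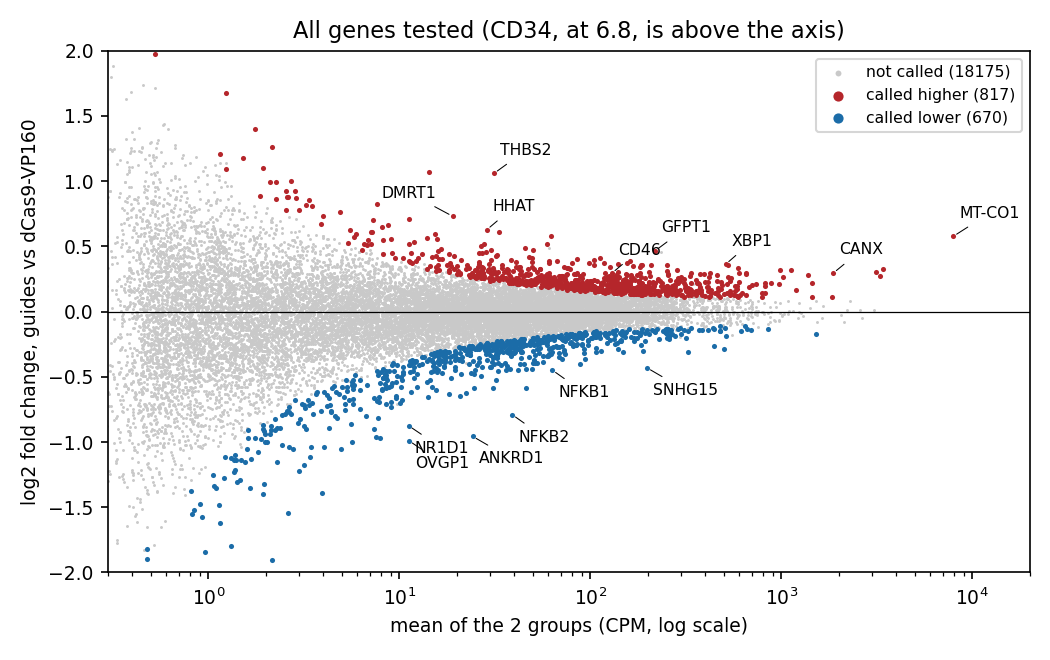
Log2 fold change with guides against dCas9-VP160 by mean level of the groups (CPM, log scale), 1 point per gene tested; red points are the genes called higher and blue the genes called lower. Called changes narrow towards 0 as levels rise, with MT-CO1 the exception at the right; 107 genes, of which 19 were called, CD34 included, lie outside the axes.

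Many genes of the ER's protein folding machinery were higher with guides. Of 59 tested members of the unfolded protein response list, 29 were called higher (49.2%, against 4.16% of all genes) and 0 lower, with a median log2 fold change of 0.17. At an unadjusted p under 0.05, 36 were higher and 0 lower, against 4133 of all 19662 genes in both directions together. DESeq2 called 20 and 0. Sizes were modest, from 0.15 for the disulfide isomerase PDIA3 to 0.42 for the ER prolyl isomerase FKBP14. XBP1, the transcription factor made active by unconventional splicing of its mRNA, was at 619.5, 548, 587 and 539.6 CPM with guides. Without guides it was at 452, 460.4, 449.6 and 429.6 CPM. The groups did not overlap, and the replicate 1 libraries were the higher with guides in both experiments. XBP1 rose by 0.36 (SE 0.03, adjusted p = 1.50e-07); with no plasmid it was at 206 CPM.

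Several chaperones and the main subunit of the ER's entry channel rose. HSPA5, the ER chaperone BiP, was at 1117, 1030.4, 1199.6 and 1101 CPM with guides and 888, 892, 981 and 945 CPM without (0.27, SE 0.03, adjusted p = 3.23e-06). CANX, the lectin chaperone calnexin of glycoproteins, was at 2076, 2117, 2056 and 1969 CPM against 1708, 1622, 1724 and 1645 CPM (0.29, SE 0.03, adjusted p = 7.30e-07). For HSPA5 and CANX every library with guides was above every library without. SEC61A1 forms the channel through which new proteins enter the ER. It was at 717, 679, 644 and 584 CPM with guides and 551, 563, 494 and 485 CPM without, and rose by 0.33 (SE 0.03, adjusted p = 5.53e-07). The small subunit SEC61B was at 0.0125 on the log2 scale and was not called. The reads of SEC61A1 cannot be told apart from those of RUVBL1 where the exons overlap. SEL1L, an adaptor of the complex that sends misfolded proteins to degradation, was at 173, 169, 181 and 180.2 CPM against 139.8, 126, 143 and 133 CPM (0.37, SE 0.04, adjusted p = 2.45e-06), again without overlap.

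Further members covered successive steps of secretory protein making. The targeting and processing genes SRPRB and SRPRA (receptor of the signal recognition particle), SSR1 and SSR2 (translocon-associated proteins), SPCS2 and SPCS3 (signal peptidase) and SERP1 rose by 0.17 to 0.28. The disulfide isomerases P4HB, PDIA4 and PDIA6 rose by 0.22, 0.24 and 0.21. Co-chaperones of BiP, namely DNAJB9, DNAJB11, DNAJC3 and DNAJC10, rose by 0.16 to 0.29, and the ER chaperone HYOU1 by 0.21. HERPUD1 and SELENOS, both of the degradation pathway, rose by 0.22 each. HSP90B1, the ER form of HSP90, rose by 0.17 (SE 0.03, adjusted p = 0.00177), although its libraries overlapped: 1129, 1252, 1341 and 1333 CPM with guides and 1005, 1032, 1254 and 1233 CPM without. The sensors of the response were not called: ATF6 had a log2 fold change of 0.0024, EIF2AK3 of 0.08 and ERN1 of -0.14.

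The ER stress response element is the promoter sequence, CCAAT and CCACG separated by 9 bases of any kind, through which ATF6 and XBP1 are known to act. Searched on both strands in RefSeq promoter windows of 300 bases (250 before to 50 after the start), it was found in 27 of 35116 promoters (0.0769%). Among 52 members of the list with such a window it was found in 8 (15.4%), and among the 25 of these that were called higher in 5 (20%). The list holds textbook targets of the response, so that share describes the list. Of lists described below, ER to Golgi transport held the element in 0 of 40 promoters (0 of 22 called higher). S phase held it in 0 of 53 (0 of 19 called higher) and NF-kB in 0 of 37. The 5 promoters of called unfolded protein response members are shown, with 20 flanking bases where the window allows. Capitals mark the element (GRCh38.p14).

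XBP1, chr22:28800583-28800641, minus strand: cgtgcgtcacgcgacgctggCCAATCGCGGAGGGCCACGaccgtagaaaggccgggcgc
HSPA5, chr9:125241371-125241429, minus strand: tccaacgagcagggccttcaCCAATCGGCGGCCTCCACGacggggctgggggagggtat
CANX, chr5:179698758-179698816, plus strand: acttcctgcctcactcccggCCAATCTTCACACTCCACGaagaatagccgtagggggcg
SERP1, chr3:150546690-150546746, minus strand: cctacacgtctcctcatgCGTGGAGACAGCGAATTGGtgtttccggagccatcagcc
HSP90B1, chr12:103930196-103930359, plus strand: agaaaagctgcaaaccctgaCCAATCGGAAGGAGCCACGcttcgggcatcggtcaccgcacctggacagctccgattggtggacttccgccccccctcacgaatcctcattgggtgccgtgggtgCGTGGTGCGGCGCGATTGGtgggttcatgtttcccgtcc

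HSP90B1 held 2 elements, of which the second is in the reverse orientation, as is that of SERP1. The 3 members with an element that were not called were CALR (0.11, SE 0.04, adjusted p = 0.0812), CRELD2 (0.12, SE 0.06, adjusted p = 0.284) and ERO1B (-0.0019, SE 0.07, adjusted p = 0.992). CALR is calreticulin, the soluble counterpart of calnexin.

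Transcripts of genes for vesicle transport between ER and Golgi were higher as well. Of 45 tested genes of ER to Golgi transport, 26 were called higher (57.8%, against 4.16% of all genes) and 0 lower, with a median of 0.16. Unadjusted, 31 were higher and 0 lower, against 4133 of all 19662 genes in both directions together. DESeq2 called 17 and 0. The list shares 4 tested members with the unfolded protein response list, 3 of them called, so the lists together held 52 higher genes of 100. COPA, a coat subunit of vesicles that return to the ER, was at 717, 679, 644 and 614 CPM with guides and 584, 556, 502 and 510.0 CPM without (0.30, SE 0.03, adjusted p = 2.50e-06). KDELR2, a receptor that retrieves ER proteins, was at 458, 433, 488 and 451 CPM against 370.4, 365, 406 and 386 CPM (0.27, SE 0.03, adjusted p = 1.40e-05). Neither gene's groups overlapped, although exons of COPA overlap those of NCSTN and exons of KDELR2 those of DAGLB. MCFD2, a cargo receptor subunit, rose by 0.26 and ARF4, a GTPase of vesicle budding, by 0.26.

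GFPT1 had the smallest p of all genes tested after CD34, MT-CO1 and THBS2. It encodes the enzyme that commits sugar to the hexosamine pathway, which supplies protein glycosylation, and it is on none of the lists. Its level was 254, 250.1, 268 and 232 CPM with guides and 189.7, 162, 190.3 and 184 CPM without. It rose by 0.46 (SE 0.04, adjusted p = 7.01e-08), without overlap of the groups.

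The integrated stress response list, which holds targets of the transcription factor ATF4, had more rises than falls. Of 47 tested members 16 were higher (34%, against 4.16% of all genes) and 2 lower (4.26%, against 3.41%), with a median of 0.11; from replicate 1 alone 13 and 2, and from replicate 2 alone 6 and 0. Those that rose included genes for charging transfer RNA and for making serine. AARS1, alanyl-tRNA synthetase, was at 471, 412, 402 and 371 CPM with guides and 365, 372, 308 and 314 CPM without. It rose by 0.29 (SE 0.04, adjusted p = 7.41e-06), with the lowest library with guides just under the highest without. SARS1, seryl-tRNA synthetase, rose by 0.26 and ALDH1L2, a mitochondrial folate enzyme, by 0.49. NUPR1, a stress-induced nuclear protein, was at 45.3, 43.5, 36.7 and 35.4 CPM against 24.3, 29.1, 27.5 and 25.2 CPM and rose by 0.61 (SE 0.08, adjusted p = 1.62e-05). The 2 that fell, named here after their values were seen, were PPP1R15A, a phosphatase subunit that reverses the response (-0.20), and the transcription factor ATF3 (-0.17).

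**Figure D3:**
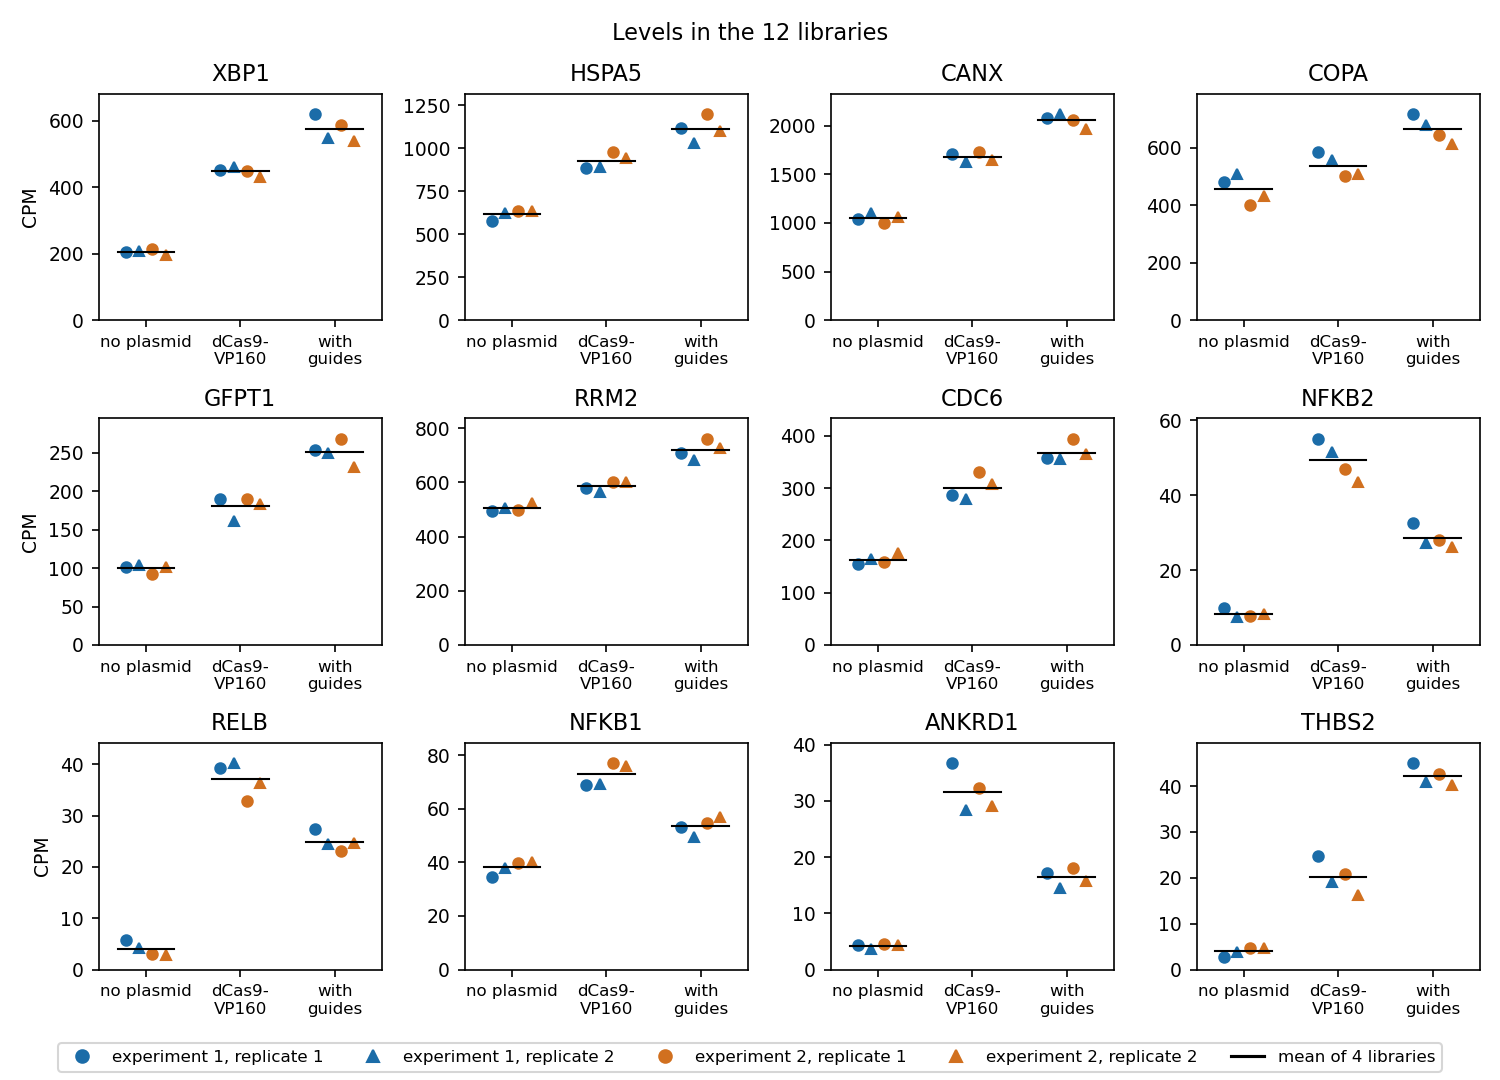
Levels (CPM, axes from 0) of 12 genes in the 12 libraries by group, with colour for the experiment, shape for the technical replicate and a line for the mean. XBP1, HSPA5, CANX, COPA, GFPT1, RRM2, CDC6 and THBS2 are highest with guides, whereas NFKB2, RELB, NFKB1 and ANKRD1 lie between no plasmid and dCas9-VP160 alone.

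Part of the DNA replication genes were higher with guides. Of 66 tested S phase genes 25 were called higher (37.9%, against 4.16% of all genes) and 1 lower, with a median of 0.10. RRM2, the regulated subunit of ribonucleotide reductase, was at 709.5, 681, 761 and 727 CPM with guides and 579.7, 563, 601 and 601 CPM without (0.29, SE 0.03, adjusted p = 2.11e-06). CDC6, which loads the replicative helicase at origins, was at 357, 355, 394 and 366 CPM against 286, 279, 331 and 308 CPM (0.30, SE 0.04, adjusted p = 8.34e-06). The groups of RRM2 and CDC6 did not overlap. HELLS, a chromatin remodeller, rose by 0.36 (SE 0.04, adjusted p = 2.89e-06), from 191, 171, 184 and 180.2 CPM to 226, 256, 229.5 and 223 CPM. Others were the thymidine kinase TK1 (0.25), the helicase subunits MCM4 (0.21) and MCM7 (0.11), the origin recognition subunits ORC1 (0.24) and ORC6 (0.16), and RPA1 and RPA2 (0.22 and 0.19), which coat single-stranded DNA.

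The 2 cyclins of the G1 to S transition on this list differed. CCNE2 rose by 0.29 (SE 0.05, adjusted p = 8.05e-04), although its exons overlap those of INTS8. CCNE1 fell by 0.23 (SE 0.07, adjusted p = 0.0383), with overlapping libraries at 39.7, 28.9, 33.1 and 33.4 CPM with guides and 37.3, 42.4, 44.9 and 35.5 CPM without. CCNE1 lost its call in 14 of 20 alternatives of the processing, as did ORC6, and MCM7 in 11 of 20. MCM7 was at 0.18 from replicate 1 and 0.03 from replicate 2 (adjusted p = 0.832). Of 44 tested mitotic genes 4 were higher (9.09%, against 4.16% of all genes) and 1 lower (2.27%, against 3.41%), with a median of 0.03. The spindle gene NUSAP1 was at 0.22 and the activator of the anaphase complex CDC20 at -0.16. Of 29 tested replication-dependent histone genes 0 were higher and 6 lower (20.7%, against 3.41% of all genes), with a median of -0.45. Among these H2AC6 fell by 0.43 and H2BC21 by 0.69, the latter not called from replicate 2 alone (-0.62, adjusted p = 0.128). The cDNA was primed on poly(A) tails, which most messages of these histones lack, and related copies can share reads.

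Part of the NF-kB list was lower with guides. Of 46 tested members of the NF-kB list 0 were higher and 14 were called lower (30.4%, against 3.41% of all genes), with a median of -0.26. At an unadjusted p under 0.05, 22 members were lower and 2 higher, against 4133 of all 19662 genes in both directions together. DESeq2 called 5 lower and 0 higher. NFKB2, the precursor of the p52 subunit, was at 32.5, 27.3, 27.9 and 26.2 CPM with guides and 55.0, 51.6, 47.1 and 43.5 CPM without. The highest library with guides was well under the lowest without. NFKB2 fell by 0.79 (SE 0.07, adjusted p = 7.01e-08), and with no plasmid it was at 9.94, 7.42, 7.72 and 8.19 CPM.

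The subunit genes RELB and NFKB1 followed the same order of groups. RELB, the partner of p52, was at 27.4, 24.5, 23.1 and 24.6 CPM with guides, at 39.4, 40.2, 32.8 and 36.5 CPM without and at 2.79 to 5.73 CPM with no plasmid (-0.59, SE 0.08, adjusted p = 3.54e-05). NFKB1, the precursor of p50, was at 53.1, 49.5, 54.6 and 56.8 CPM against 69.0, 69.4, 77.0 and 76.2 CPM (-0.45, SE 0.06, adjusted p = 9.99e-06). Neither gene's groups overlapped. The subunits RELA (-0.05, adjusted p = 0.609) and REL (0.07, adjusted p = 0.704) were not called.

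Inhibitors and feedback genes of the pathway were among those that fell. TNFAIP3, a ubiquitin-editing enzyme that shuts the pathway off, was at 19.9, 19.3, 18.5 and 21.6 CPM with guides and 31.6, 29.1, 29.3 and 28.4 CPM without (-0.59, SE 0.08, adjusted p = 3.51e-05). Its exons overlap those of WAKMAR2. NFKBIE, an inhibitor that holds NF-kB in the cytoplasm, was at 25.3, 24.0, 21.4 and 17.9 CPM against 31.0, 34.8, 33.9 and 27.3 CPM (-0.50, SE 0.08, adjusted p = 2.17e-04). Both had groups without overlap. The inhibitors NFKBIA and NFKBIB fell by 0.20 and 0.28, and the deubiquitinase CYLD by 0.28. TNIP1, which binds TNFAIP3, fell by 0.28.

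Upstream and downstream members also fell. The kinase genes IKBKE and RIPK2 fell by 0.58 and 0.26, the apoptosis inhibitor BIRC3 by 0.46 and the chemokine CXCL8 by 0.51. The remaining call was LTA, lymphotoxin alpha, whose highest library was at 1.08 CPM, and 3 counts correspond to 0.25 to 0.439 CPM, so no fold change is given. The adhesion gene ICAM1 (-0.38, adjusted p = 0.0718) and the cytokine gene TNF (-0.54, adjusted p = 0.429) were not called. From the replicate 1 libraries alone 6 members of the list were lower, and from the replicate 2 libraries alone 8.

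Some clock genes and growth-regulating genes also fell. Of 22 tested circadian genes 0 were higher and 6 lower (27.3%, against 3.41% of all genes), with a median of -0.13. NR1D1, a haem-binding repressor of the clock, was at 8.38, 7.32, 9.05 and 6.55 CPM with guides and 13.9, 13.3, 16.5 and 14.2 CPM without (-0.87, SE 0.12, adjusted p = 2.45e-05), though its exons overlap those of THRA. BMAL1, the activator that NR1D1 represses, was at 28.4, 30.2, 31.0 and 33.0 CPM against 42.4, 37.9, 46.4 and 40.4 CPM (-0.45, SE 0.07, adjusted p = 1.52e-04). Both genes had groups without overlap. The clock-regulated factors BHLHE41 and HLF fell by 0.70 and 0.71. From replicate 2 alone BMAL1 (-0.32, adjusted p = 0.109), BHLHE41 (-0.43, adjusted p = 0.205) and HLF (-0.54, adjusted p = 0.126) were not called, and the list had 2 lower genes, against 5 from replicate 1 alone.

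ANKRD1, a target of the YAP and TEAD factors, was at 17.2, 14.5, 17.99 and 15.8 CPM with guides and 36.7, 28.4, 32.2 and 29.1 CPM without. With no plasmid it was at 3.71 to 4.50 CPM. It fell by 0.96 (SE 0.09, adjusted p = 1.05e-07), and the groups lay wide apart. Of 23 tested genes of that list 1 was higher and 3 were lower (13%, against 3.41% of all genes; median -0.11), the others being CCN2 (-0.40) and AMOTL2 (-0.33). CCN2 was at -0.60 from replicate 1 and -0.19 from replicate 2 (adjusted p = 0.311). GADD45G, a growth arrest gene, was at 3.397, 4.20, 3.75 and 3.56 CPM with guides and 7.45, 9.36, 6.55 and 7.08 CPM without (-0.999, SE 0.18, adjusted p = 5.84e-04). Its level with guides overlapped that with no plasmid, 2.81 to 4.47 CPM. OVGP1, an oviduct glycoprotein, was at 8.83, 6.89, 8.39 and 5.69 CPM against 15.9, 15.1, 15.7 and 13.2 CPM and fell by 0.99 (SE 0.12, adjusted p = 5.78e-06).

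Immediate early genes gave calls in both directions. Of 42 tested 1 was higher and 5 were lower (11.9%, against 3.41% of all genes), with a median of -0.08. FOS, a subunit of the AP-1 transcription factor, was at 18.005, 11.9, 15.1 and 10.5 CPM with guides and 8.51, 9.50, 9.94 and 6.83 CPM without (0.71, SE 0.12, adjusted p = 2.32e-04). In both experiments its replicate 1 library was the higher with guides, and the rise was 0.85 from replicate 1 (adjusted p = 2.40e-04) and 0.49 from replicate 2 (adjusted p = 0.169). The phosphatase gene DUSP8 fell by 0.48 and PHLDA1 by 0.57, and from replicate 2 alone neither was called (adjusted p = 0.0534 and 0.146). SNHG15, a long non-coding host of a small nucleolar RNA, fell by 0.43 (SE 0.04, adjusted p = 2.13e-07), from 232, 224, 235 and 217 CPM to 176, 154, 178 and 165 CPM.

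Beyond CD34 the largest rise in expressed genes that both replicate numbers gave was that of THBS2. This secreted matrix glycoprotein was at 44.95, 40.8, 42.6 and 40.3 CPM with guides, 24.8, 19.0, 20.9 and 16.2 CPM without and 2.69 to 4.75 CPM with no plasmid. The 3 groups did not overlap, and THBS2 rose by 1.06 (SE 0.09, adjusted p = 3.33e-08). DMRT1, a transcription factor of the testis, was at 25.1, 21.4, 25.5 and 22.6 CPM with guides and 15.7, 12.7, 15.8 and 12.8 CPM without (0.73, SE 0.09, adjusted p = 1.29e-05). HHAT, the enzyme that adds palmitate to hedgehog proteins, also lies on chromosome 1 (210328252 to 210676296, plus strand). It was at 37.9, 35.2, 33.1 and 33.3 CPM against 22.9, 21.9, 24.0 and 21.2 CPM and rose by 0.63 (SE 0.08, adjusted p = 7.41e-06). With no plasmid HHAT was at 19.3 to 22.8 CPM, which overlaps the level with dCas9-VP160 alone.

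The list of p53 targets had 13 higher (32.5%, against 4.16% of all genes) and 1 lower of 40 tested (median 0.11), with 7 higher from replicate 1 alone and 3 from replicate 2 alone. TP53I3, a quinone reductase, was at 60.8, 62.0, 57.2 and 53.5 CPM with guides and 36.4, 45.5, 39.98 and 47.3 CPM without (0.47, SE 0.07, adjusted p = 5.82e-05). CLCA2, linked to chloride currents, was at 9.96, 9.47, 7.95 and 11.96 CPM against 6.19, 4.68, 5.68 and 5.16 CPM (0.82, SE 0.14, adjusted p = 3.93e-04). The groups of these genes did not overlap. From replicate 2 alone TP53I3 was not called (0.30, adjusted p = 0.0788), and from replicate 1 alone CLCA2 was not (0.59, adjusted p = 0.0723). The large T antigen that these cells carry binds p53, and p53 protein was not measured.

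Mitochondrially encoded genes were called higher, and the replicate 2 libraries with guides carried that call. Of 15 tested, 12 were higher (80.0%, against 4.16% of all genes) and 0 lower, with a median of 0.32. From the replicate 1 libraries alone 0 were higher and 1 lower (median 0.05; MT-CO1 was at 0.38, adjusted p = 0.255), and from the replicate 2 libraries alone 13 were higher (median 0.53). With both replicate 2 libraries with guides left out 1 was higher and 1 lower (median 0.02). MT-CO1, a subunit of complex IV, was at 8121, 11675, 7868 and 10587 CPM with guides and 6505, 6697, 5824 and 6391 CPM without. MT-CYB, a subunit of complex III, was at 2717, 4357, 3079 and 4288 CPM against 2886, 2986, 2944 and 3071 CPM. Its log2 fold change was 0.27 (SE 0.03, adjusted p = 2.08e-06) from all libraries, -0.0126 from replicate 1 alone and 0.51 from replicate 2 alone. In both genes the pair of replicate 2 libraries with guides stood above the rest of these 8 libraries.

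The interferon-induced genes IFIT2 and IFIT3 went the other way between replicates. IFIT2, which binds viral and other RNA, was at 21.5, 10.1, 31.4 and 11.8 CPM with guides and 7.84, 11.3, 8.41 and 9.66 CPM without. Its log2 fold change was 1.07 (SE 0.12, adjusted p = 1.99e-06) from all libraries, 1.69 from replicate 1 and 0.08 from replicate 2 (adjusted p = 0.867). IFIT3, its binding partner, was at 11.6, 5.27, 11.7 and 7.12 CPM against 4.93, 5.70, 5.24 and 6.16 CPM (from all libraries 0.70, SE 0.15, adjusted p = 0.00358). Its value was 1.19 from replicate 1 and 0.04 from replicate 2 (adjusted p = 0.953). The replicate 1 libraries with guides were the high ones in both experiments, while the replicate 2 libraries lay at or near the level without guides. Exons of IFIT2 overlap those of LIPA. Of 54 tested interferon-stimulated genes 5 were higher (9.26%, against 4.16% of all genes) and 0 lower (median 0.04). The other 3 were the peptide transporter TAP1 (0.21), the RNA editor ADAR (0.14) and, named after its value was seen, TRIM22 (0.35).

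CYP4F3, a leukotriene hydroxylase, and CFAP69, a protein of cilia, also rested on replicate 1. CYP4F3 was at 14.6, 9.58, 8.94 and 6.26 CPM with guides and 6.09, 8.04, 4.70 and 6.33 CPM without, with log2 fold changes of 1.12 from replicate 1 and 0.11 from replicate 2 (from all libraries 0.65, SE 0.14, adjusted p = 0.00427). CFAP69 was at 4.19, 4.41, 5.19 and 6.97 CPM against 11.996, 5.41, 11.6 and 8.24 CPM, with values of -1.33 and -0.28 (from all libraries -0.90, SE 0.15, adjusted p = 2.79e-04). For CFAP69 the libraries that differed by replicate were those without guides.

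**Figure D4:**
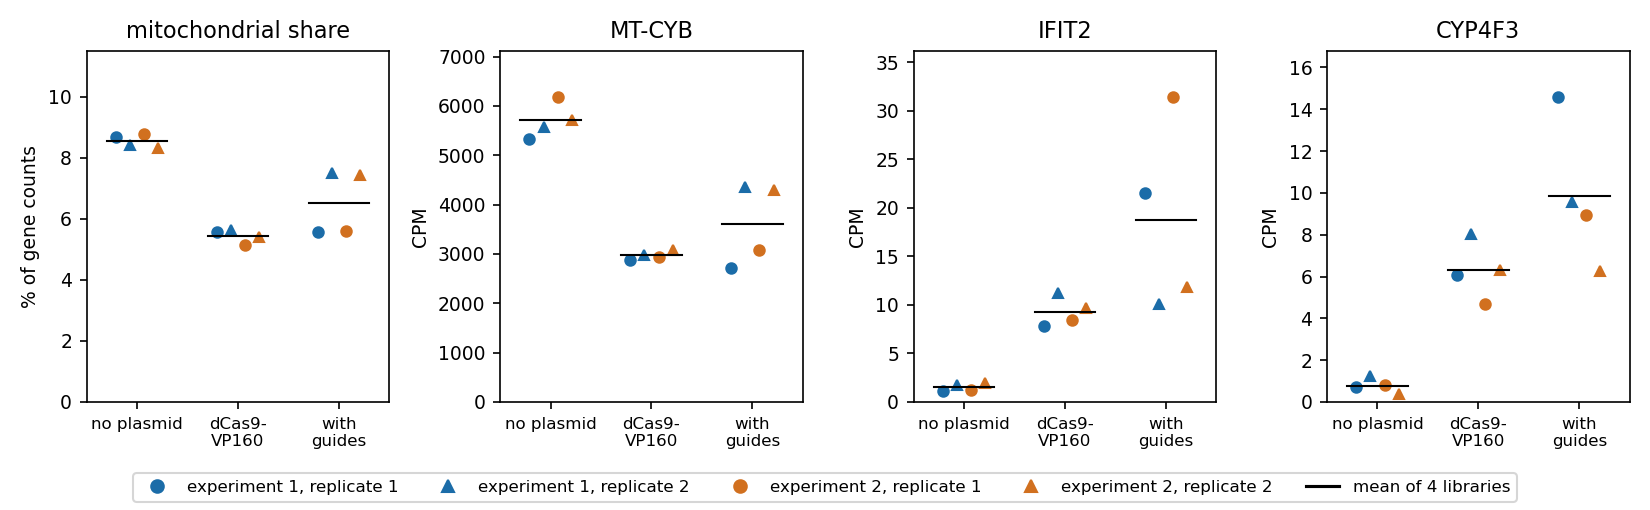
Mitochondrial share of gene counts (%) and levels of MT-CYB, IFIT2 and CYP4F3 (CPM) in the 12 libraries by group, with colour for the experiment, shape for the technical replicate and a line for the mean. With guides the replicate 2 libraries (triangles) have the higher mitochondrial share, 7.49% and 7.44%, and the replicate 1 libraries (circles) the higher IFIT2, 21.5 and 31.4 CPM.

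The gene lists were therefore also counted by replicate number, although each such fit has 2 libraries a group. The unfolded protein response list had 26 higher and 0 lower from replicate 1 (median 0.19) and 16 and 0 from replicate 2 (median 0.16). ER to Golgi transport had 20 and 9 higher, and 0 lower in either, and S phase had 16 and 9 higher with 0 lower. Across all genes, 456 were higher and 336 lower of 17348 tested from replicate 1, and 255 and 162 of 17666 from replicate 2. Called in both fits in the same direction were 163 genes. With both replicate 2 libraries with guides left out, 898 of all genes were higher and 564 lower. In that fit the unfolded protein response list had 29 higher genes, ER to Golgi transport 25, S phase 29 and, lower, NF-kB 10. Further genes named above or below moved by over 1.5 times between all libraries and 1 replicate number. From replicate 2 alone DNAJB11 (0.13), SELENOS (0.15), HYOU1 (0.12), SSR2 (0.11), CD44 (0.11) and SPARC (0.07) were not called. From replicate 1 alone DNAJC10 (0.10), TNIP1 (-0.17), NFKBIB (-0.14) and H2AC6 (-0.24) were not called. Called from neither alone were SPARC (0.16 from replicate 1, adjusted p = 0.0501) and NFKBIB (-0.43 from replicate 2, adjusted p = 0.0517). What set these technical replicates apart was not tested.

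**Figure D5:**
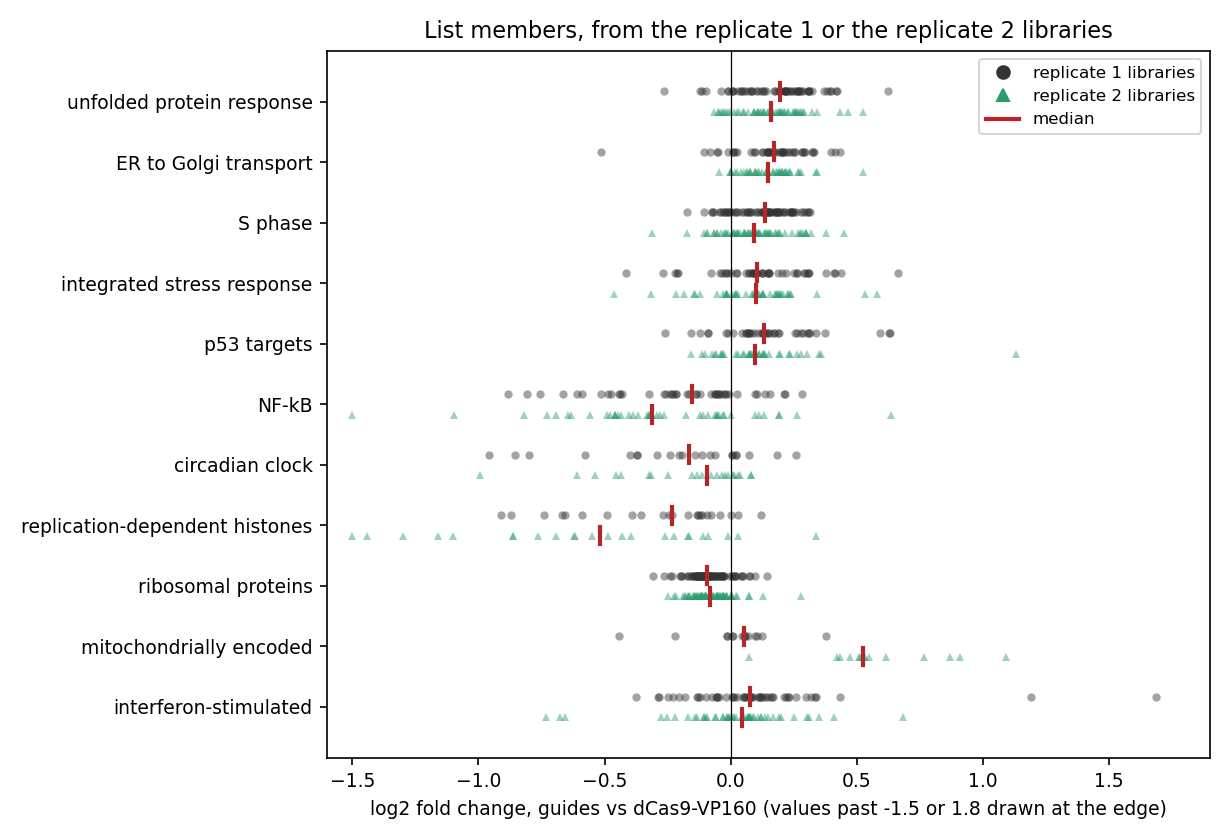
Log2 fold change with guides against dCas9-VP160 of the members of 11 lists, 1 point per gene, from the replicate 1 libraries (grey circles) and the replicate 2 libraries (green triangles), with red bars for medians. Medians of the unfolded protein response, ER to Golgi and S phase lists are above 0 and that of NF-kB below 0 from either replicate, whereas the mitochondrial median is 0.05 from replicate 1 and 0.53 from replicate 2.

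Markers of the cells that normally carry CD34 gave 1 other call. Of 42 blood and endothelial markers 18 were expressed highly enough to test. Of these 1 was higher (5.56%, against 4.16% of all genes) and 0 lower (median -0.05). The call was the adhesion receptor CD44 (0.22, adjusted p = 0.00589). Among those measured and not called were the endothelial adhesion gene MCAM (0.02), the endothelial gene EGFL7 (-0.14), the blood transcription factor GATA2 (-0.16), the stem cell factor receptor KIT (0.01) and the vascular growth factor receptor FLT1 (0.02). The leukocyte gene PTPRC had 1 count over all 8 libraries, the endothelial genes PECAM1 and CDH5 had 11 and 14, and the haemoglobin genes HBB and HBG1 had 0. The summed level of the list was 338 to 377.3 CPM with guides and 339.6 to 369.5 CPM without. Among 6 tested sialomucins, the class to which CD34 belongs, 3 were higher (50%, against 4.16% of all genes). PODXL, podocalyxin, a close relative of CD34, was at 57.9, 57.5, 54.6 and 54.5 CPM with guides and 47.5, 44.7, 39.4 and 45.9 CPM without (0.33, SE 0.06, adjusted p = 0.00110). CD164 rose by 0.18 (SE 0.04, adjusted p = 0.00158), while CD24 (0.47, adjusted p = 0.0469), whose reads pseudogenes can share, had a value of 0.90 from replicate 1 and 0.0021 from replicate 2.

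Markers of other cell types gave calls in both directions, to be set beside 4.16% higher and 3.41% lower of all genes. The epithelial and kidney list had 1 higher (4.17%), PODXL, and 1 lower (4.17%), the keratin KRT18 (-0.14), of 24 tested. The kidney gene UMOD, a marker of mature tubule cells, had 0 counts in all 8 libraries. The neuronal list had 2 higher (10%), ENO2 (0.24) and NEFL (0.14), and 2 lower (10%) of 20. Those lower were the synaptic gene SNAP25 (-0.81) and the granule protein gene SCG2 (-1.04). From replicate 2 alone ENO2 (0.14), NEFL (0.14) and SCG2 (-0.76) were not called. NEFL was not called from replicate 1 alone either (0.14, adjusted p = 0.0964). The matrix and mesenchymal list had 2 higher (6.9%), THBS2 and SPARC (0.11), and 1 lower (3.45%), FN1 (-0.14), of 29. FN1 was at 0.0278 from the replicate 2 libraries alone, and SPARC lost its call in 15 of 20 alternatives of the processing.

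Calls in the remaining lists are set beside the shares of all genes, 4.16% higher and 3.41% lower. Cholesterol genes had 4 higher (12.5%, against 4.16% of all genes) and 0 lower of 32 (median 0.03), among them EBP (0.24), an enzyme of sterol synthesis. Ribosomal protein genes had 0 higher and 13 lower of 76 (17.1%, against 3.41% of all genes; median -0.09), led by RPL10A (-0.21) and RPS7 (-0.19), with reads that pseudogenes can share. From either replicate number alone 3 of the 76 were lower, and 26 were with both replicate 2 libraries with guides left out. Heat shock genes had 3 higher (10%) and 2 lower (6.67%) of 30, and ribosome biogenesis genes 2 (4.17%) and 3 (6.25%) of 48. Hypoxia genes had 3 higher (7.69%) and 1 lower (2.56%) of 39, and antioxidant and metal genes 2 (7.14%) and 3 (10.7%) of 28. The growth arrest list had 1 higher, CDKN1A (0.12), and 3 lower (15.8%, against 3.41% of all genes) of 19, GADD45G, CDKN1B (-0.66) and GAS1 (-0.38). The chaperonin list had 0 higher and 2 lower (11.8%) of 17, both pseudogenes, CCT6P3 (-0.97) and CCT6P1 (-0.65), with reads that their parent genes can share.

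Counts of 0 above were also read at an unadjusted p under 0.05 in the edgeR fit. Over all 19662 genes tested, 4133 passed that threshold, both directions together. Counts near that share say nothing particular about a list. The clock list then had 1 higher and 11 lower genes, the histones 0 and 14, the ribosomal proteins 0 and 33 and the chaperonin list 2 and 4. The interferon-stimulated list had 10 higher and 2 lower, the cholesterol list 5 and 1, the blood and endothelial markers 1 and 2, the sialomucins 4 and 1 and the mitochondrially encoded genes 13 and 0. DESeq2 called 0 higher and 3 lower clock genes, 0 and 1 histones, 0 and 1 ribosomal protein genes, 0 and 1 chaperonin genes, 1 and 0 interferon-stimulated genes and 3 and 0 cholesterol genes. It called 0 blood and endothelial markers, 2 higher sialomucins and 12 higher mitochondrially encoded genes.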

How the data were processed

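The authors deposited raw counts of reads per gene for 12 libraries, made from total RNA with the SMART-Seq HT and Nextera XT kits per the labels' protocols. The submitters' processing notes name STAR 2.6.0c, Trim Galore 0.3.7, DESeq2 1.16.1, Picard 2.17.1 and build hg38. The sources used here do not give the counting program, annotation or strand setting. Although the labels call the libraries directional, these kits do not mark strand, so reads of genes with overlapping exons cannot be told apart, and related copies can share reads. Of 60604 gene identifiers 56812 matched GENCODE v29, and 92 spike-in sequences (at most 0.00571% of counts in the 8 libraries) were left out. A table of the authors' own results was not used.

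Technical replicates were summed, leaving 6 libraries with 16359839 to 20968535 tested counts in the 4 compared, and n = 2 experiments per group. The test was that of edgeR 4.0.16 under R 4.3.3 (filterByExpr, TMM, robust quasi-likelihood fit, experiment as block, no plasmid included for the spread). P-values were adjusted by Benjamini and Hochberg over 19662 genes. The fit had 2 residual degrees of freedom, against a median of 24 prior degrees of freedom borrowed from other genes. The SE is the absolute log2 fold change over the square root of F. Per the labels, each experiment used its own batch of cells, so groups are paired by experiment; deviations between experiments correlated at 0.615 to 0.632 between groups over 12814 genes. A count of 3 corresponds to 0.25 to 0.439 CPM, which covers counting error only. The scripts were tested on simulated data.

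Named genes are CD34, the 15 largest rises and falls called with a mean of at least 5 CPM, the 10 smallest p, called list members (up to 4 for other than the 3 leading lists) and tested genes within 1 Mb of CD34. Members, the 26 gene lists and this rule were chosen with earlier results of these data known. Alternatives were DESeq2 1.42.0, its size factors, no count filter, no block, only the 4 summed libraries, unsummed libraries, a fold threshold of 1.2 and leaving out libraries. Leaving out both replicate 2 libraries with guides was added after seeing the data.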

Additional observations from a re-analysis of the deposited data

How the results depend on the processing

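CD34 kept its call in all 20 alternatives, with log2 fold changes of 6.71 to 6.85. With DESeq2, 270 genes were higher and 90 lower, with 5 lower NF-kB and 14 higher S phase genes. Without the replicate block (the experiment number left out of the model) 1 gene was higher, CD34, and 0 were lower, and 0 unfolded protein response, 0 NF-kB and 0 S phase genes were called. Tested against a fold change of 1.2, 11 genes were higher and 29 lower, with 0 unfolded protein response, 3 NF-kB and 0 S phase genes. Leaving out a replicate number, a library or an experiment gave 153 to 942 higher and 139 to 616 lower genes, 13 to 31 unfolded protein response, 5 to 15 NF-kB and 9 to 26 S phase genes. Without replicate 1 of experiment 1 with guides 501 genes were higher and 400 lower, with 14 S phase genes. FN1 turned to 0.0278 without replicate 1 (-0.28 without replicate 2). MT-CYB turned to -0.0126 without replicate 2 (0.51 without replicate 1) and to -0.0339 with both replicate 2 libraries with guides left out. Those libraries have the high mitochondrial share, of which MT-CYB is itself a part. The cause of these changes was not tested. Of the called genes that are named by rule, 172 of 172 kept their call with DESeq2's size factors and with the 4 summed libraries only, 167 of 172 without a count filter and 154 of 171 with unsummed libraries. Fewer did so with DESeq2 (87 of 147), against a fold change of 1.2 (23 of 172) and without the replicate block (1 of 172). Without replicate 1 77 of 172 kept it, without replicate 2 114 of 171, without experiment 1 66 of 171, without experiment 2 86 of 171, and without single libraries 135 to 166. With 2 experiments the spread of each gene is mostly borrowed from other genes.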
